A study of Saccharomyces cerevisiae with 12 samples.

Results

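The hal4hal5 double mutant of Saccharomyces cerevisiae was compared with its wild type in the W303 background at pH 4.5 on 4 of the 12 two-colour arrays in the study, chosen by their sample titles. Each array carried cDNA of a mutant culture and of a wild-type culture. Both strains were W303, a common laboratory strain, and both were grown at 28 °C in YPD, a rich glucose medium, to Ab660 1.0 in log phase. Mutant cDNA was in Cy5 on replicates 1, 3 and 4 and in Cy3 on replicate 2, so a dye effect does not cancel in the mean. The other 8 arrays served for comparison and held the same pair of genotypes, 4 in W303 at pH 6.0 and 4 in the laboratory strain BY4741 at pH 4.5, each with 2 arrays per dye orientation. The sources used here do not give other alleles of the strains, the number of mutant clones or the way in which the deletions were made. The arrays are described as biological replicates, and the p-values measure the spread between them.

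HAL4, also called SAT4 (YCR008W), and HAL5 (YJL165C) encode related serine/threonine protein kinases that promote potassium uptake through the Trk1 and Trk2 transporters. They are also known to keep nutrient permeases, among them amino acid and glucose transporters, at the plasma membrane. Yeast growing on glucose with ample amino acids normally keeps its stress, reserve and respiration genes low through protein kinase A and related nutrient pathways, while the genes for ribosomes and biosynthesis stay high.

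All values are log2 ratios of mutant over wild type, and a difference of 1 is a 2-fold change where the base of the deposited logarithm is 2. That base was inferred from the range of the values, and the order of the dyes in the ratio from the deleted genes. Signal for SAT4 was -0.09, -0.18, -0.23 and -0.18 on replicates 1 to 4, with a mean of -0.17 ± 0.059 (SE, n = 4, adjusted p = 0.028). HAL5 had ratios of 0.42, -0.27, -0.21 and -0.32, with a mean of -0.10 ± 0.12 (SE, n = 4, adjusted p = 0.48), which did not pass the test. SAT4 was thus lower on every array by a small amount, while HAL5 was lower on 3 arrays and higher on the array labelled replicate 1. Without replicate 1 the HAL5 mean was -0.27 and was called, with an adjusted p of 0.0086, and without replicate 3 or 4 the SAT4 means of -0.15 and -0.17 were not, each with an adjusted p of 0.11, nor was SAT4 with the spread pooled over all 12 arrays (adjusted p = 0.62). Both means are small for genes that the labels give as deleted in the mutant. In BY4741 at pH 4.5 the means were further below 0, at -0.84 for SAT4 on 2 arrays and -0.51 for HAL5 on 4. In W303 at pH 6.0 SAT4 had a mean of -0.46, with arrays from -1.74 to 0.62, and HAL5 a mean of -0.03 on 3 arrays. The direction of the ratios is therefore likely, not settled. Were the dyes in the opposite order, each rise below would be a fall.

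The 4 arrays held 5540, 5429, 5574 and 5659 values for replicates 1 to 4. Their pairwise correlations across genes, which are not independent replicates, ran from 0.878 to 0.948, with the dye-swapped replicate 2 in the lowest pair. Regressed on the mean of the other arrays, replicate 2 had the shallowest slope, 0.887, against 0.946 to 1.02 for the other arrays. The median SD between the 4 arrays was 0.131 for a gene, against 0.151 in BY4741 and 0.261 in W303 at pH 6.0. With a dye term in the fit, limma called the dye coefficient at an adjusted p below 0.05 in 0 of 5230 genes with 4 values, and 556 had an unadjusted p below 0.05. That count of 556 is above the share of 0.05 that chance alone would give. The coefficient rests on replicate 2 as the only dye-swapped array, so 0 calls do not show that dye effects are absent. The median size of that coefficient was 0.070. Genes without a value on replicate 2 had the mutant in Cy5 only, so a dye effect there cannot be told apart from the mutant effect. Among them are ADR1, FLO11, MF(ALPHA)1, MFA1, ATH1, NNK1 and PTK1. Spot intensities were not used, so how far a value lies above background is unknown, and the number of arrays limits the precision.

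Most of the genome differed between the strains, mainly by small amounts. Of 5501 genes with at least 3 values, 3807 were called by limma at a Benjamini-Hochberg adjusted p below 0.05, which is 69.2%. Of all genes 36.1% rose and 33.1% fell. At least 2-fold changes were far fewer and leaned towards rises, with 266 genes higher, 4.84% of all, and 67 lower, 1.22%. The median over all genes tested was 0.026. The counts of called genes in the groups described next are read against these shares. Counts of 3 or fewer genes in a list moved by up to 1 gene, and in the phosphate and aromatic lists by 2, when single arrays were left out. In bulk RNA, more cells expressing a gene and more RNA in each cell cannot be told apart.

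**Figure D1:**
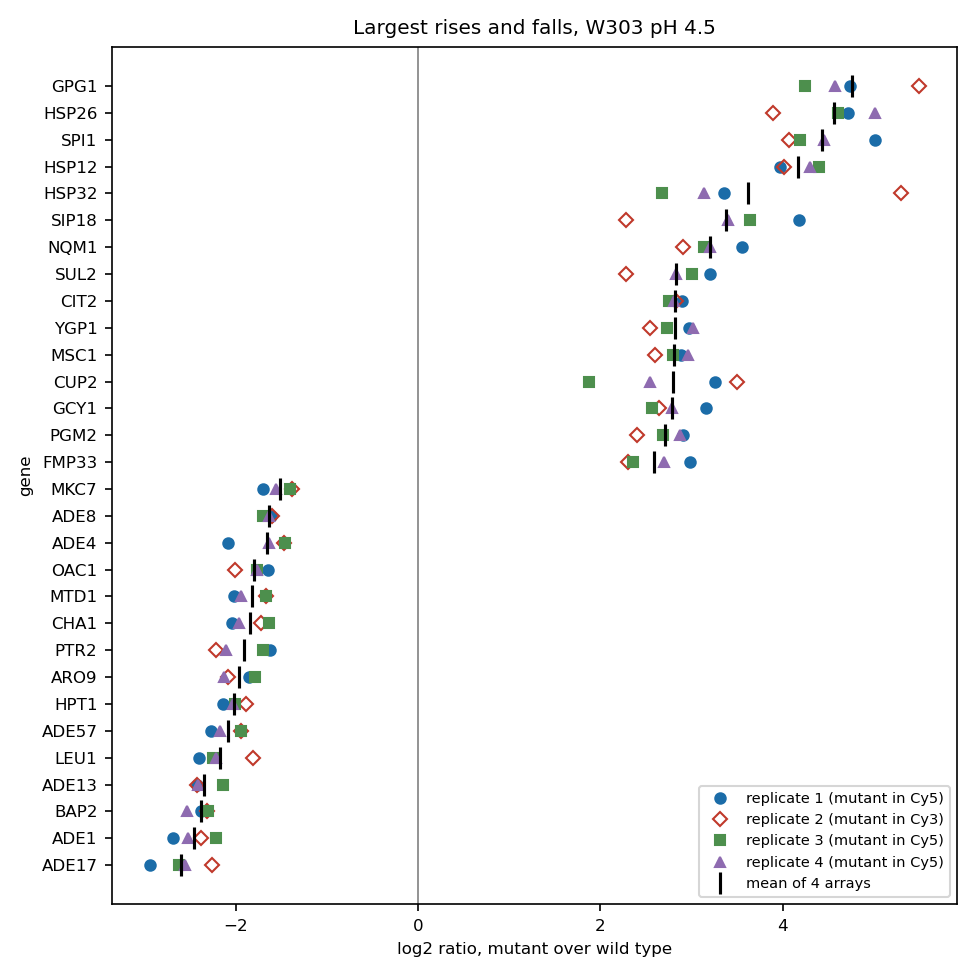
Log2 ratios of mutant over wild type on each array for the 15 leading rises and 15 leading falls in order of their mean, among genes with a symbol, a value on all 4 arrays and 1 sign on every array, without the auxotrophic marker genes. Points are single arrays, with the dye-swapped replicate 2 as an open diamond, and the bar marks the mean. GPG1 lies highest with a mean of 4.76 and ADE17 lowest with -2.60. The choice of genes fixes that none has arrays on both sides of 0.

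The largest rise belonged to GPG1 (YGL121C), which has been proposed to encode a subunit of the G protein that couples the Gpr1 sugar receptor to protein kinase A. GPG1 ratios were 4.73, 5.49, 4.24 and 4.57, a mean of 4.76 ± 0.17 (SE, n = 4, adjusted p = 1.0e-07) or 27.1-fold. HSP26, a small heat shock chaperone gene, had ratios of 4.71, 3.89, 4.61 and 5.02, and SPI1, for a cell surface protein of stationary phase and weak-acid stress, of 5.02, 4.07, 4.18 and 4.45. Replicate 2 was the highest array for GPG1 and the lowest for HSP26 and SPI1. HSP12, for a small protein of the stress response that binds membranes, was tighter at 3.97, 4.02, 4.39 and 4.29. In HSP32 (YPL280W), of a chaperone-like family with near-identical members that a spot may not separate, the dye-swapped array stood highest at 5.30, with 2.68 to 3.36 on the other arrays. The desiccation gene SIP18 showed the reverse order, with 2.28 on the dye-swapped array and 3.40 to 4.18 on the others.

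Among the remaining leading rises, the peroxisomal citrate synthase gene CIT2 had the closest arrays, at 2.90, 2.83, 2.75 and 2.81. CIT2 lies 3 genes from SAT4 in the RefSeq order. SUL2, a sulphate permease gene, had ratios of 3.20, 2.28, 3.01 and 2.83. NQM1, a second transaldolase gene, rose by 3.20, the secreted glycoprotein gene YGP1 by 2.82 and MSC1 by 2.81. CUP2, for a copper-sensing transcription factor, rose by 2.80 with a wide range of 1.88 to 3.50. GCY1, for a glycerol dehydrogenase, rose by 2.79, the phosphoglucomutase gene PGM2 by 2.71 and FMP33, for a mitochondrial protein, by 2.59. FMP33 lies 4 genes from HAL5. Over these 15 genes the lowest single value was that of CUP2 on replicate 3.

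The largest falls were in purine synthesis and in amino acid uptake and use. ADE17, for the enzyme of the last steps to IMP, had ratios of -2.94, -2.26, -2.63 and -2.56, a mean of -2.60 ± 0.099 (SE, n = 4, adjusted p = 1.5e-07). BAP2, for a branched-chain amino acid permease, had -2.38, -2.32, -2.31 and -2.54, and LEU1, for isopropylmalate isomerase of leucine synthesis, -2.41, -1.81, -2.25 and -2.22. HPT1, for the enzyme that salvages hypoxanthine and guanine, had -2.14, -1.89, -2.01 and -2.03. Replicate 2 was the array nearest to 0 for ADE17, LEU1 and HPT1, but not for BAP2. ARO9, an aromatic aminotransferase gene induced by its amino acids, fell by 1.97, the peptide permease gene PTR2 by 1.91 and CHA1, for the serine deaminase that yeast makes when serine is supplied, by 1.84. MTD1, a one-carbon folate enzyme gene, fell by 1.83, the mitochondrial carrier gene OAC1 by 1.80 and the cell surface protease gene MKC7 by 1.52.

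Among kinases of the family to which Sat4 and Hal5 belong, 6 of 7 measured genes rose and 0 fell, with a list median of 0.36. PTK2, for a kinase that activates the plasma membrane proton pump and polyamine uptake, had ratios of 0.72, 0.89, 1.15 and 1.05, a mean of 0.95 ± 0.079 (SE, n = 4, adjusted p = 1.2e-05). NNK1 rose by 0.63 (n = 3), NPR1, for the kinase that protects the general amino acid permease from turnover, by 0.45, RTK1 by 0.36, PTK1 by 0.35 (n = 3) and KKQ8 by 0.19. PRR1 had a mean of -0.04 and was not called. The calls of PTK1 (0.22, adjusted p = 0.084) and KKQ8 (0.18, adjusted p = 0.076) were lost without replicate 3, and that of KKQ8 also without replicate 4 (0.18, adjusted p = 0.1). With a dye term 5 genes of this list could be tested and 3 rose, without KKQ8 (0.15, adjusted p = 0.056). With the spread pooled over all 12 arrays 2 of 7 rose, without RTK1, NPR1, PTK1 and KKQ8 (adjusted p = 0.051, 0.054, 0.055 and 0.43). None of the family reached 2-fold.

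Potassium, sodium and proton transport moved little next to these values. In that list 12 of 20 measured genes rose and 5 fell, with a median of 0.25 and 0 members beyond 2-fold. TRK1, the high-affinity potassium transporter gene, rose by 0.23, from 0.12 to 0.40 over the arrays, and TRK2 had a mean of -0.10 on 3 arrays without a call. The potassium channel gene TOK1 rose by 0.26 and PMA1, for the plasma membrane proton pump, by 0.34. Regulators of the phosphatase Ppz1, which restrains Trk transport, rose further, with 0.84 for VHS3 and 0.85 for YPI1, and PPZ2, for the second such phosphatase, rose by 0.67. PPZ1 itself, at 0.21, was not called. The sodium pump gene ENA2, which belongs to a cluster of near-identical copies, fell by 0.65, and QDR2, for an exporter of drugs and potassium, by 0.40. KHA1, a potassium and proton antiporter gene, fell by 0.22 and NHX1, for the endosomal sodium and proton exchanger, by 0.26 (n = 3). Several of these small changes rested on single arrays. The calls of TRK1 (0.18, adjusted p = 0.052) and TOK1 (0.19, adjusted p = 0.057) were lost without replicate 1, and those of NHX1 (-0.25, adjusted p = 0.076) and TOK1 (0.26, adjusted p = 0.052) without replicate 4. The TOK1 call was also lost with a dye term in the fit, at 0.18, and its dye-swapped array was at 0.03. KHA1 was not called without replicate 1, 2 or 4, at -0.24, -0.13 and -0.20, and PPZ1 was called at 0.32 without replicate 2 (adjusted p = 0.0038). Falls in this list numbered 3 without replicate 4 and 2 with the spread pooled over all 12 arrays. VCX1, the vacuolar calcium exchanger gene, rose by 0.51 and HAL1 by 0.46. With the pooled spread HAL1 (adjusted p = 0.085), TRK1 (0.056), KHA1 (0.41) and NHX1 (0.54) were not called. In the calcium and calcineurin list, 9 of 17 measured genes rose and 3 fell, with 1 fall under the pooled spread. The vacuolar calcium pump gene PMC1 (0.69) and GSC2 (0.67), both calcineurin targets, had the largest rises, while CNA1, for a calcineurin catalytic subunit, fell by 0.45 and its isoform CMP2 rose by 0.59.

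The cyclic AMP and protein kinase A pathway held the leading gene GPG1 and other changes of both signs. In it 16 of 24 measured genes rose and 3 fell. TPK2, for a catalytic subunit, rose by 0.67, whereas TPK3, for another, fell by 0.41. BCY1, the inhibitory subunit gene, rose by 0.52, the cyclase gene CYR1 by 0.71 and IRA1, for a Ras inhibitor, by 0.69. PDE1, for the low-affinity phosphodiesterase that degrades cyclic AMP, rose by 1.16, and YAK1, for a growth-restraining kinase that the pathway inhibits, by 0.72. RAS1 had ratios of -1.19, -0.93, -1.17 and -1.07, a mean of -1.09 ± 0.066 (SE, n = 4, adjusted p = 2.0e-06), and its relative RAS2 rose by 0.39. The receptor gene GPR1, at 0.01, and the stress activator genes MSN2, at 0.20, and MSN4, at -0.06, were not called, although MSN2 was without replicate 2, at 0.28 (adjusted p = 0.014), and with the pooled spread (adjusted p = 0.039). SCH9, for a kinase downstream of TORC1, fell by 0.49, and in the TORC1 and PP2A list 9 of 20 measured genes rose and 1 fell. ADR1, for an activator of glucose-repressed genes downstream of Snf1, rose by 2.91 ± 0.12 (SE, n = 3, adjusted p = 5.9e-07). Its ratios were 3.17, 2.55 and 3.01 on replicates 1, 3 and 4, all with the mutant in Cy5.

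**Figure D2:**
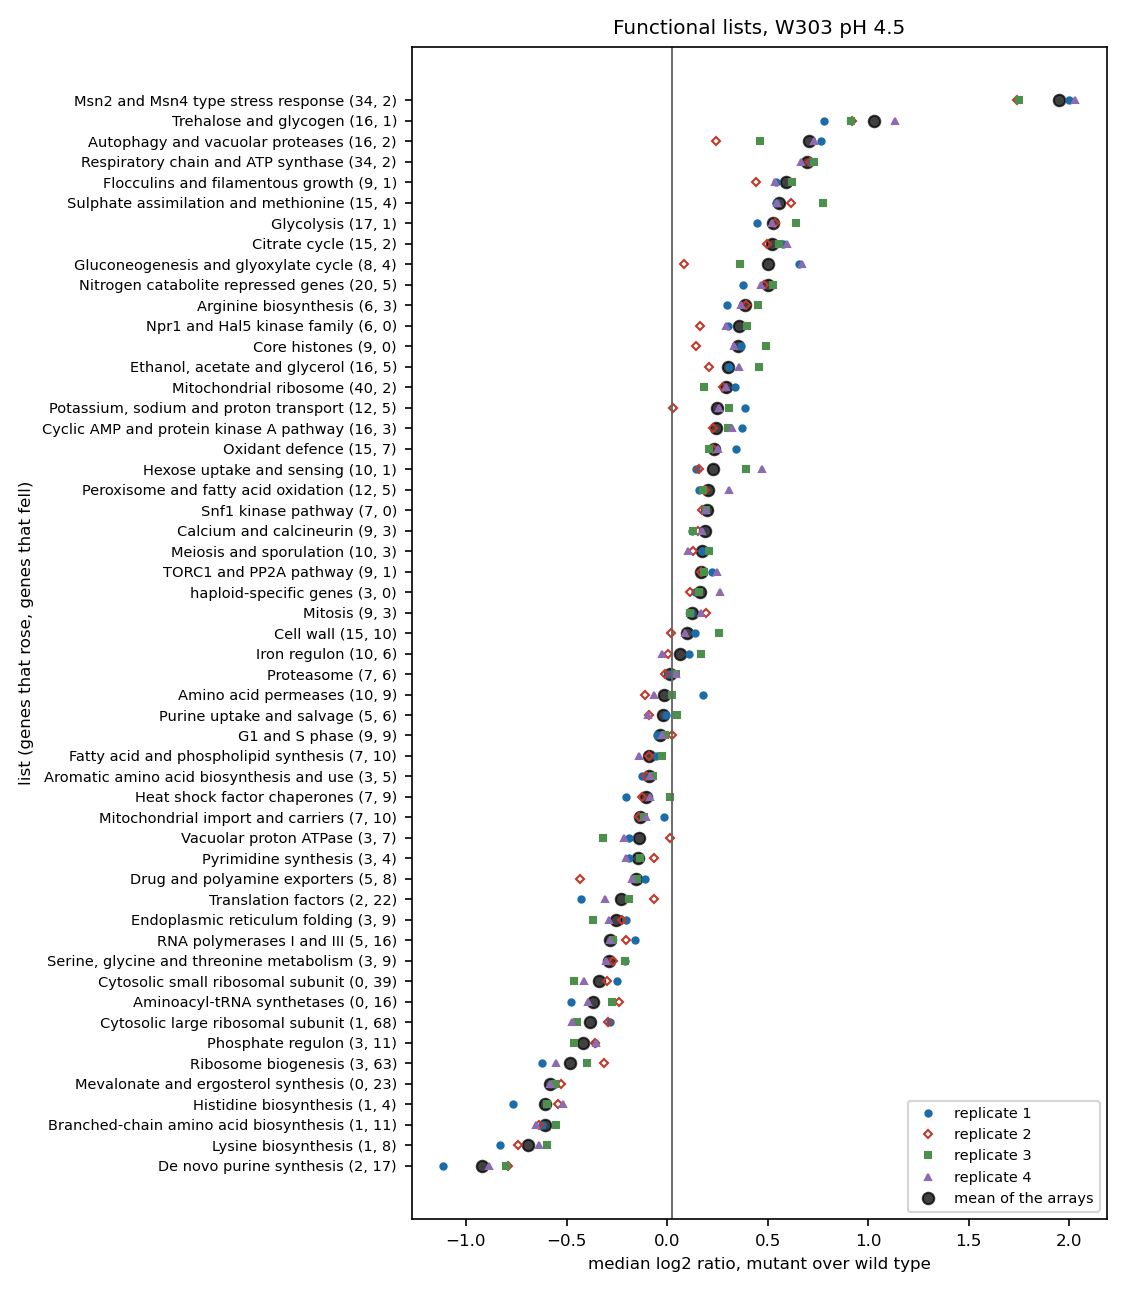
Median log2 ratio of mutant over wild type over the measured genes of each functional list, for the mean of the 4 arrays (filled circle) and for single arrays (small marks), in order of the median. The vertical line is the median over all genes tested, 0.026, and the 2 counts beside each list are the called genes that rose and fell. The stress list is at 1.95 and de novo purine synthesis at -0.92.

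Genes of the general stress response, which the related activators Msn2 and Msn4 switch on, formed the group with the highest median. Here 34 of 38 measured genes rose and 2 fell, and 29 rose at least 2-fold, with a median of 1.95. Besides the genes above, GPX1, a glutathione peroxidase gene, rose by 2.56, HOR7 by 2.50, DDR48 by 2.47, the membrane protein gene YRO2 by 2.36 and PRX1, for the mitochondrial peroxiredoxin, by 2.11. The catalase gene CTT1 rose by 0.98 and HSP104, for the disaggregating chaperone, by 1.52. Not every stress gene took part. SSA3, an inducible Hsp70 gene, had -0.37, -0.54, -0.39 and -0.21 and fell by 0.38, and the membrane gene FMP45 fell by 0.29, a call lost with the spread pooled over all 12 arrays (adjusted p = 0.079). The outer membrane gene OM45, at -0.10, was not called.

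Chaperones under the heat shock factor showed no such rise. In that list 7 of 27 measured genes rose and 9 fell, against 36.1% and 33.1% of all genes, and only SSE2 passed 2-fold. SSE2, an Hsp110 gene, had 2.51, 1.65, 1.85 and 2.15, a mean of 2.04 ± 0.12 (SE, n = 4, adjusted p = 2.1e-06), against a fall of 0.65 for its housekeeping relative SSE1. On replicate 2 the SSE2 ratio was the lowest of the 4. The Hsp40 gene YDJ1 fell by 0.50 and the cochaperone gene CNS1 by 0.56. The Hsp70 genes SSA1, at -0.09, and SSA2, at -0.13, are near-identical and were not called. Folding genes of the endoplasmic reticulum leaned lower, since 3 of 18 measured genes rose and 9 fell, with LHS1 at -0.74 and KAR2, for the Hsp70 of that compartment, at -0.57.

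Defence against oxidants was divided. Of this list 15 of 29 measured genes rose and 7 fell. The peroxiredoxin gene AHP1 rose by 1.78 ± 0.085 (SE, n = 4, adjusted p = 4.7e-07), the glutathione transferase gene GTT1 by 1.17, TRX3, for mitochondrial thioredoxin, by 1.15, GRX1, for glutaredoxin, by 1.03 and SOD2, for mitochondrial superoxide dismutase, by 1.00. CTA1, for the peroxisomal catalase, fell by 0.80 and GPX2, for another peroxidase, by 0.40. The cytosolic members TRX1, for thioredoxin, at -0.08 and HYR1, for a peroxidase, at 0.09 were not called.

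Degradation in the vacuole and by the proteasome differed. In the autophagy and vacuolar protease list 16 of 26 measured genes rose and 2 fell, with 8 of the rises at least 2-fold. ATG8, for the ubiquitin-like protein of autophagosomes, had 1.98, 2.33, 1.93 and 2.06, a mean of 2.07 ± 0.077 (SE, n = 4, adjusted p = 1.4e-07). AMS1, the vacuolar mannosidase gene, rose by 2.03, the protease genes PRB1 by 1.82 and APE1 by 1.67, and ATG19, for the receptor that carries Ape1 and Ams1, by 1.44. The genes of 2 protease inhibitors rose as far, PAI3 by 2.11 and PBI2 by 2.00. CPS1, for a vacuolar carboxypeptidase, fell by 1.12, with -1.68, -0.79, -1.15 and -0.87. Proteasome subunits stayed near 0, with a median of 0.01 and a range of -0.49 to 0.35 over 33 genes. In the vacuolar proton pump list 3 of 17 measured genes rose and 7 fell, with VPH1, for the vacuolar isoform of subunit a, at -0.67 and VMA4 at 0.37.

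Reserve carbohydrate genes rose by large amounts. In trehalose and glycogen metabolism 16 of 19 measured genes rose and 1 fell, with 10 of the rises at least 2-fold. GDB1, for the glycogen debranching enzyme, had 2.58, 2.39, 2.38 and 2.78, the branching enzyme gene GLC3 rose by 2.20 and TSL1, for a subunit of trehalose synthase, by 2.03. Genes of synthesis and of breakdown rose side by side, with GSY2, for glycogen synthase, at 1.03 and the trehalase genes NTH2 at 0.89 and ATH1 at 1.05 (n = 3). PIG1, for a regulatory subunit of glycogen synthase phosphatase, fell by 0.46, whereas its relative PIG2 rose by 1.09. The trehalase gene NTH1, at 0.06, was not called.

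Central carbon metabolism rose in most steps. Within glycolysis 17 of 20 measured genes rose and 1 fell. The glucokinase gene GLK1 had 2.55, 2.36, 2.61 and 2.81 and the hexokinase gene HXK1 2.20, 1.96, 2.44 and 2.43, while enzymes of later steps changed less, such as PGI1 (0.25) and CDC19 (0.61). Among hexose transporters HXT4 rose by 1.33, HXT7 by 0.89 and HXT3 by 0.54, but these genes are close copies whose spots may share signal. HXT1 and HXT2 had means of -0.03 (n = 3) and -0.04 without a call, and MIG3, for a glucose repressor, fell by 0.73. In the list of ethanol, acetate and glycerol metabolism 16 of 24 measured genes rose and 5 fell, with the aldehyde dehydrogenase genes ALD3 at 1.97 and ALD2 at 1.63, and ACS2, for the acetyl-CoA synthetase of growth on glucose, at -0.50.

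The genes of gluconeogenesis and the glyoxylate cycle went apart, although they are commonly repressed by glucose together. In that list 8 of 13 measured genes rose and 4 fell. MDH2, the cytosolic malate dehydrogenase gene, had 1.10, 1.18, 1.41 and 1.52 and ICL1, for isocitrate lyase, rose by 0.88. MLS1, for the malate synthase of the same cycle, fell by 0.65, with -1.20, -0.84, -0.53 and -0.03. The acetate transporter genes fell too, ADY2 by 0.72 and ATO3 by 1.11. ADY2 lies 2 genes from SAT4. FBP1, for fructose bisphosphatase, fell by 0.28. In the peroxisome list 12 of 22 measured genes rose and 5 fell, where PIP2, for an oleate activator, rose by 1.02 (n = 3) and POT1, for the thiolase, fell by 0.38.

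Mitochondrial energy genes rose in most members. Among genes of the respiratory chain and the ATP synthase 34 of 37 measured genes rose and 2 fell, with a median of 0.70. STF2, a regulator of the ATP synthase also known from desiccation stress, had 2.25, 1.82, 2.13 and 2.28 and the internal NADH dehydrogenase gene NDI1 1.63, 1.52, 1.85 and 1.78. Against this, CYC1, for the main cytochrome c, had -0.94, -0.73, -1.26 and -1.25 and fell by 1.05, and the external NADH dehydrogenase gene NDE1 fell by 0.45 while NDE2 rose by 0.94. Of citrate cycle genes 15 of 17 measured genes rose and 2 fell, led by SDH4 (1.79), a subunit of succinate dehydrogenase, and MDH1 (1.33). The mitochondrial ribosome had a smaller median of 0.29, where 40 of 62 measured genes rose and 2 fell. Import and carrier genes did not follow, since 7 of 27 measured genes rose and 10 fell, against 36.1% and 33.1% of all genes. Rises there numbered 4 without replicate 1 or 4, with a dye term, or with the spread pooled over all 12 arrays. POR1, for the main outer membrane porin, rose by 1.21 and POR2 fell by 0.68. The carrier genes PIC2, for phosphate, and ODC2, for oxodicarboxylates, rose by 1.15 and 1.08, whereas CTP1, for citrate, fell by 1.23.

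De novo purine synthesis was the list with the lowest median, -0.92. In it 2 of 20 measured genes rose and 17 fell, and 10 of 20 fell at least 2-fold, where 1.22% of all genes did. ADE1 had -2.69, -2.39, -2.21 and -2.52, ADE13 -2.43, -2.42, -2.14 and -2.41 and ADE57, for a bifunctional enzyme, -2.28, -1.95, -1.95 and -2.17. ADE4, for the first committed step, had -2.08, -1.48, -1.46 and -1.64, and ADE8, for the first formyl transfer, -1.62, -1.60, -1.71 and -1.64. All of these arrays were well below 0, and ADE8 had the closest of them. ADE6 fell by 1.45 and ADE12, on the branch to AMP, by 0.73. On the branch to GMP, the IMP dehydrogenase genes IMD3 and IMD4, which are close copies, fell by 1.16 and 1.33, and GUA1 by 1.11. ADE2 fell as well, with -2.56, -2.08, -2.08 and -2.48, but it is a common marker gene of laboratory strains, W303 among them. ADE16, for the isozyme of Ade17, rose by 0.22 and the activator gene PHO2 by 0.32, while its partner BAS1, at -0.15, was not called. The PHO2 call was lost with the spread pooled over all 12 arrays (adjusted p = 0.33). The ADE16 call was lost without replicate 3 (0.19, adjusted p = 0.057) or 4 (0.21, adjusted p = 0.061), and BAS1 was called without replicate 3 (-0.23, adjusted p = 0.025). Genes of PRPP synthesis, the precursor, fell by less, with PRS3 at -0.53.

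In uptake and salvage of purines and in the pyrimidine list, single genes fell by large amounts while the lists did not lean clearly. Among salvage genes 5 of 14 measured genes rose and 6 fell, with a median of -0.02. These counts lie near the 36.1% and 33.1% of all genes. Beside HPT1, the adenine deaminase gene AAH1 had -1.42, -1.01, -1.33 and -1.36 and FCY2, for the purine and cytosine permease, fell by 0.95. GUD1, for guanine deaminase, rose by 0.75 and ISN1, for an IMP nucleotidase, by 0.67. In the pyrimidine list 3 of 13 measured genes rose and 4 fell, also near those shares. URA7, for the main CTP synthase, fell by 1.19, the uridine permease gene FUI1 by 1.05 and FUR1, for uracil salvage, by 0.99. URA8, for the second CTP synthase, rose by 0.46.

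Amino acid routes did not move together. Branched-chain synthesis fell in most members, since 1 of 12 measured genes rose and 11 fell, with BAT1, for the mitochondrial aminotransferase, at -1.45, -1.69, -1.38 and -1.52 and LEU9, a second isopropylmalate synthase gene, at -1.26. In lysine synthesis 1 of 10 measured genes rose and 8 fell, with LYS4, for homoaconitase, at -1.09 and LYS9, for a saccharopine dehydrogenase, at -1.07. HIS4, for a trifunctional enzyme of histidine synthesis, had -1.50, -1.48, -1.34 and -1.46. Arginine synthesis went the other way in most of its members, since 6 of 10 measured genes rose and 3 fell. ARG4, for argininosuccinate lyase, had 1.03, 0.96, 0.96 and 1.11, and ARG1, for the step before it, rose by 0.76. ARG3 fell by 0.28. With the spread pooled over all 12 arrays limma called 0 falls in the arginine list, with ARG3 at an adjusted p of 0.29. In the aromatic list the larger falls lay in use, with ARO9 above and the decarboxylase gene ARO10 at -0.88. Synthesis genes moved by less and both ways. ARO7 and TYR1 fell, at -0.57 and -0.48, and PHA2, ARO1 and ARO3 rose, at 0.38, 0.22 and 0.20. ARO4 and TRP5, at -0.06 and 0.03, were not called. Glycine and serine genes were divided as well, with SER3, for the first step to serine, at 1.11 and the cleavage complex genes GCV2 at -1.07 and GCV3 at -1.16.

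Permease genes moved in both directions. Over 24 measured genes of this list, 10 rose and 9 fell, with a median of -0.01, and these counts lie near the 36.1% and 33.1% of all genes. Among targets of the Ssy1 sensor of external amino acids, BAP2 and PTR2 are described above, TAT1 had -1.18, -1.12, -1.23 and -1.35 and GNP1 fell by 0.90. The tryptophan permease gene TAT2 fell by 0.76. The lysine permease gene LYP1 fell by 0.70 and the histidine permease gene HIP1 by 0.41. GAP1, for the general permease of poor nitrogen conditions, had 1.51, 1.30, 1.49 and 1.41, and AGP1, for a broad permease also under Ssy1, 1.15, 0.91, 1.21 and 1.01. SSY1 itself rose by 0.41, and the factor gene STP1 below it by 0.75, while BAP3, at -0.02, was not called.

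**Figure D3:**
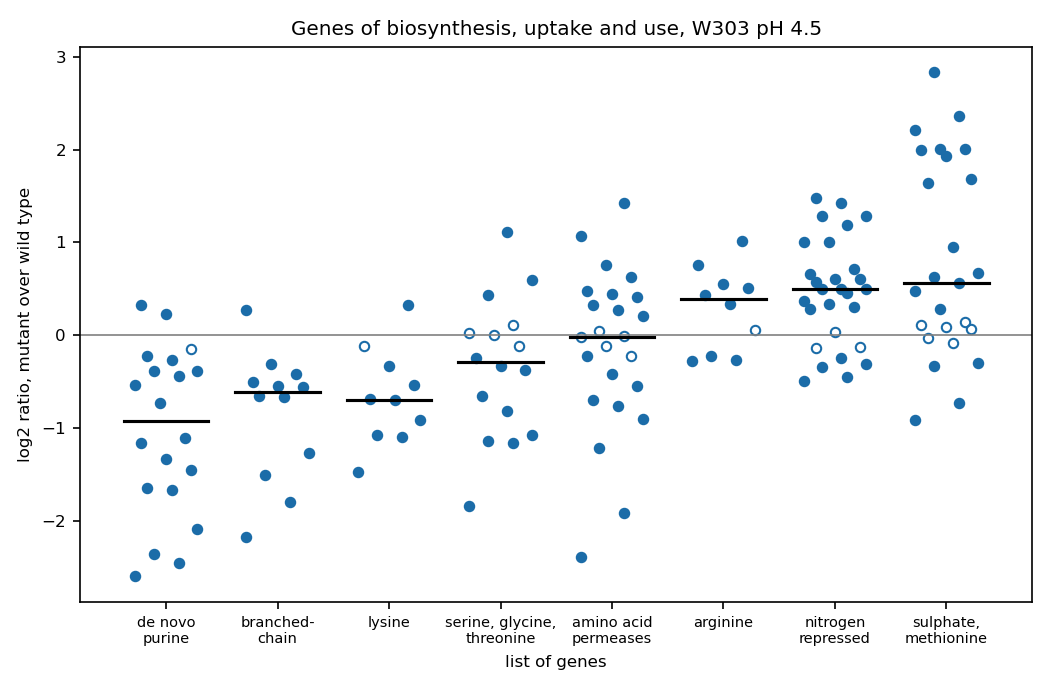
Log2 ratios of mutant over wild type for each measured gene of 8 biosynthesis, uptake and use lists, as the mean of its arrays. Filled points were called by limma and open points were not, and the horizontal mark is the list median. Purine, branched-chain and lysine genes lie mostly below 0, sulphate genes mostly above, and permeases on both sides.

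The early steps of sulphate assimilation held large rises, in a list with a median of 0.56. In this list 15 of 25 measured genes rose and 4 fell, with 9 of the rises at least 2-fold. MET5 and MET10, for the subunits of sulphite reductase, had 2.64, 2.44, 2.23 and 2.14 and 1.95, 1.81, 1.95 and 2.01. MET28, for a cofactor of the activator Met4, had 2.40, 1.82, 2.12 and 2.49. The earlier steps MET3, MET14 and MET16 rose by 1.99, 2.01 and 2.01, and MET17, where sulphide enters carbon chains, by 1.90. Genes after that point did not follow, with SAM1, for S-adenosylmethionine synthase, at -0.91, -0.89, -0.81 and -1.05, CYS3 at -0.30 and CYS4 at -0.34. MET17 is deleted in BY4741 by strain background, not in W303.

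Nitrogen catabolite repressed genes, which cells use when good nitrogen sources run low, rose in most cases. In that list 20 of 28 measured genes rose and 5 fell. PUT1, for proline oxidase, had 1.33, 1.48, 1.55 and 1.57, and the 4-aminobutyrate genes UGA1 and UGA2 rose by 1.29 and 1.19. CAR2, for arginine breakdown, rose by 1.28, and DAL3 of the allantoin route by 1.01, but DAL2 of the same route fell by 0.45. GDH2, for the glutamate dehydrogenase of breakdown, rose by 1.00. The ammonium permease genes parted, with MEP2 at 0.66 and MEP1 at -0.50.

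Iron and phosphate genes changed less. In the iron list 10 of 26 measured genes rose and 6 fell, against 36.1% and 33.1% of all genes. FIT3, a cell wall gene for siderophore retention, had 1.84, 0.86, 1.05 and 1.44, while the high-affinity uptake pair fell, FTR1 by 1.07 and FET3 by 0.57. In the phosphate list 3 of 18 measured genes rose and 11 fell, with 0 rises under the pooled spread. The acid phosphatase genes PHO3, PHO11, PHO12 and PHO5, whose sequences are close enough for spots to share signal, fell by 1.01, 0.81, 0.72 and 0.54. The high-affinity phosphate transporter gene PHO89 fell by 0.37, which was not called with the pooled spread (adjusted p = 0.077).

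Sterol synthesis was lower at most of its steps. In the mevalonate and ergosterol list 0 of 26 measured genes rose and 23 fell. ERG25 had -1.24, -1.30, -1.20 and -1.35 and HMG1, for the HMG-CoA reductase isoform of aerobic growth, -1.10, -0.97, -1.09 and -1.22. The sterol regulator gene ECM22, at -0.11, was not called. Exporters at the plasma membrane were divided, with the largest falls for AQR1 at -1.41, PDR5 at -1.29 and the polyamine exporter gene TPO1 at -1.22, in a list where 5 of 17 measured genes rose and 8 fell, with a median of -0.15 and 3 rises under the pooled spread. In fatty acid and phospholipid synthesis 7 of 21 measured genes rose and 10 fell, with the choline transporter gene HNM1 at -0.83 and the phospholipid methyltransferase gene OPI3 at 0.80. Rises in that list numbered 4 without replicate 3, and falls 6 with the spread pooled over all 12 arrays.

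Cell surface genes moved by larger steps in single members. In the cell wall list 15 of 34 measured genes rose and 10 fell, against 36.1% and 33.1% of all genes. Falls in it numbered 6 without replicate 4 and 5 with the spread pooled over all 12 arrays. PIR3 rose by 1.47, PST1 by 1.31 and HSP150 by 1.14, and all are structural wall proteins. PIR5 rose by 1.34, but replicate 1 stood apart at 2.30 with 0.94 to 1.09 on the other arrays. PIR5 lies 5 genes from HAL5. UTR2, for an enzyme that links chitin to glucan, had -1.38, -1.19, -1.22 and -1.45. FLO11, for the flocculin of invasive growth, had 5.55, 2.86 and 3.71 on replicates 1, 3 and 4, all with the mutant in Cy5. Its mean was 4.04 ± 0.41 (SE, n = 3, adjusted p = 7.2e-05). FLO1 and FLO9 rose by 1.16 and 1.09, and their sequences are near-identical repeats. PHD1, for an activator of filamentous growth, rose by 1.21 and NRG2, for a repressor of it, fell by 0.98.

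Genes for making ribosomes were lower in large numbers and by small amounts, with none of the cytosolic ribosomal protein genes beyond 2-fold. In the large subunit 1 of 77 measured genes rose and 68 fell, and in the small subunit 0 of 53 measured genes rose and 39 fell. Their medians were -0.39 and -0.34, and many of these genes are near-identical pairs whose single values are uncertain. For ribosome biogenesis 3 of 72 measured genes rose and 63 fell, with a median of -0.48. NOP1, for fibrillarin, was the outstanding exception at 2.04, 1.95, 2.23 and 2.31, and the helicase gene DBP7 rose by 0.92. In RNA polymerases I and III 5 of 28 measured genes rose and 16 fell, with RRN11, for a polymerase I initiation factor, at -1.33, -1.23, -1.31 and -1.30 and MAF1, for the repressor of polymerase III, at 0.66. Translation factors and tRNA synthetases were lower in 22 of 41 and 16 of 19 genes. TEF4 fell by 0.91 while TEF2, for elongation factor 1A, rose by 0.55.

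The division cycle was little changed outside a few regulators. In the G1 and S phase list 9 of 35 measured genes rose and 9 fell, with a median of -0.03. Falls numbered 4 without replicate 4 or with the pooled spread. The G1 cyclin gene CLN1 had 1.32, 1.22, 1.33 and 1.37, PCL1, for a cyclin of the same phase, rose by 0.86 and CLN3 by 0.62. CLN2, at 0.11, and the ribonucleotide reductase gene RNR2, at 0.10, were not called, and the DNA ligase gene CDC9 fell by 0.65. Of 11 histone genes 9 rose and 0 fell, by up to 0.52 for HTZ1. In the mitosis list 9 of 20 measured genes rose and 3 fell, and 4 rose with the pooled spread.

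Genes that mark a mating type were divided, and ratios alone give no level by which to check the strains. Of the a-specific genes the pheromone genes MFA1 and MFA2 rose by 0.88 (n = 3) and 0.93, AGA2 by 0.99 and ASG7 by 1.12, whereas BAR1, STE6 and STE2 fell by 0.66, 0.43 and 0.40. ASG7 lies 4 genes from HAL5. The alpha-factor gene MF(ALPHA)1 had 3.24, 2.71 and 3.23 on replicates 1, 3 and 4, all with the mutant in Cy5. Its mean was 3.06 ± 0.11 (SE, n = 3, adjusted p = 3.9e-07), while MF(ALPHA)2, at -0.16, was not called. Of the alpha-specific genes 1 of 3 measured genes rose and 1 fell, the latter at -0.33. The part of these mating type genes in the other results was not tested. In the list of meiosis and sporulation 10 of 18 measured genes rose and 3 fell, with SPR28 at 0.89 and SPS100 at -0.69, and 6 rose with the pooled spread.

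Pairs of related genes gave a view within a function, where the 2 copies were set side by side on the same arrays. In 39 pairs of related genes, the first was taken as the main copy in growth on glucose and the second as the other copy, in most pairs one known from stress or respiration. For pairs such as RAS1 and RAS2, ASN1 and ASN2 or TIF1 and TIF2 the order has no such ground. Of the 36 pairs with both copies measured, the second was above the first on all arrays in 27 and below it on all in 2, with a median difference of 0.54. The transaldolase genes TAL1 and NQM1 differed most, by 3.07 ± 0.20 (SD, n = 4), followed by the peroxidase genes GPX2 and GPX1 at 2.95 ± 0.26 (SD, n = 4). SSE1 and SSE2 differed by 2.69 ± 0.66 (SD, n = 4), PGM1 and PGM2 by 2.47 ± 0.43 (SD, n = 4). The copies were called in opposite directions in 4 pairs, namely GPP1 and GPP2, SSE1 and SSE2, GPX2 and GPX1, and RAS1 and RAS2. The pairs HSC82 with HSP82 and ASN1 with ASN2 ran the other way. The pairs were chosen with results of these arrays known, so their count is a description, and close copies may share signal on a spot.

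**Figure D4:**
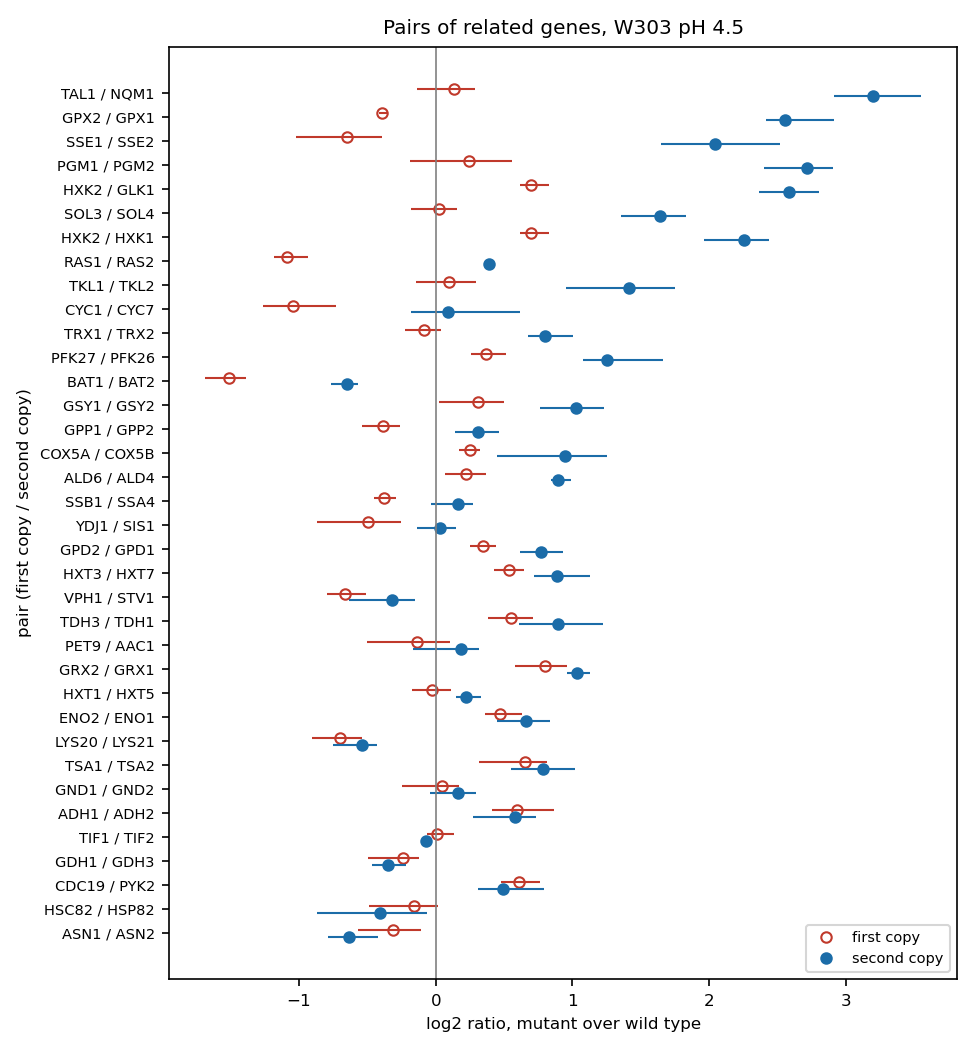
Log2 ratio of mutant over wild type of both copies of 36 pairs of related genes, in order of their difference. Open circles are the first copy named, filled circles the second, and the lines through them run from the lowest to the highest array. The filled circle lies to the right in most pairs, by up to 3.07 for TAL1 and NQM1.

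A few strong values lay at marker genes and at reading frames outside RefSeq. HIS3 had 2.10, 1.88, 1.90 and 2.11 and its neighbour DED1, an RNA helicase gene, 0.80, 1.30, 1.12 and 1.18. LEU2 rose by 0.44, TRP1 by 0.38 and CAN1 by 0.47, LYS2 fell by 0.68 and URA3, at -0.05, was not called. The TRP1 call was lost with the pooled spread (adjusted p = 0.21). Genotypes at these genes were not used here. Of 377 tested reading frames without a RefSeq entry, 47.2% fell and 28.9% rose, with a median of -0.14, against 32% and 36.7% of the 5124 with an entry and a median of 0.034. Among the highest of them, YOR121C at 2.61 is numbered next to GCY1, YBR116C at 2.30 next to TKL2 (1.41) and YOR203W at 2.08 between HIS3 and DED1. Overlapping or neighbouring frames cannot be told apart where a spot carries part of both. By chromosome, medians ran from -0.21 on chromosome 3 to 0.14 on chromosome 11.

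The mutant effect was then compared between pH values and between strain backgrounds, as the difference between the mean ratios of 2 groups in 1 fit of all 12 arrays. No array set 1 pH or 1 background against the other, so higher and lower here refer to the ratio of mutant over wild type. Against W303 at pH 6.0, 1139 of 4755 genes differed, which is 24%, with 628 (13.2%) higher and 511 (10.7%) lower at pH 4.5. Against BY4741 at pH 4.5, 971 differed, which is 20.4%, with 517 (10.9%) higher and 454 (9.55%) lower in W303. The W303 pH 6.0 arrays were less alike, and its replicate 3 had correlations of -0.0906 to 0.44 with the other arrays of its group. Without that array 1511 genes differed between the pH values, 777 higher and 734 lower. Leaving out replicate 4 of W303 at pH 4.5 gave 730 for pH and 441 for background. For background, leaving out replicate 3 of W303, or replicate 1 or 4 of BY4741, gave 495, 621 and 485. The 3 groups share no arrays, but both comparisons share the 4 arrays of W303 at pH 4.5.

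Several stress genes were further above wild type at pH 4.5 than at pH 6.0, although YGP1, with 2.82 and 2.74, and YRO2, with 2.36 and 2.68, did not pass the test of a difference. SPI1 had a mean of 4.43 at pH 4.5 and 2.31 at pH 6.0, a difference of 2.12 ± 0.48 (SE, adjusted p = 0.0075). HSP12 had 4.17 and 2.16, a difference of 2.01 ± 0.27 (SE, adjusted p = 3.6e-04). Further higher differences were those of FMP33 (2.22 ± 0.26 (SE, adjusted p = 2.4e-04)), PGM2, RGI1, TFS1, GCY1 and GAD1. MDH2 was above wild type at pH 4.5 and had a mean of -0.66 at pH 6.0, a difference of 1.96 ± 0.14 (SE, adjusted p = 5.2e-06). GAP1 likewise had -0.37 at pH 6.0, a difference of 1.79 ± 0.14 (SE, adjusted p = 1.2e-05). With every array scaled to 1 spread the differences of SPI1 (1.13, adjusted p = 0.22), HSP12 (1.09, adjusted p = 0.059) and RGI1 (1.57, adjusted p = 0.081) were not called.

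Several phosphatase and purine genes had lower ratios of mutant over wild type at pH 4.5 than at pH 6.0. PHO5 had a mean of -0.54 at pH 4.5 and 1.56 at pH 6.0, a difference of -2.09 ± 0.12 (SE, adjusted p = 1.3e-06), and PHO3 had -1.01 and 1.15, a difference of -2.15 ± 0.18 (SE, adjusted p = 1.2e-05). Their signs were thus opposite in the 2 groups. HPT1 differed by -2.15 ± 0.13 (SE, adjusted p = 1.3e-06) and ADE17 by -2.04 ± 0.18 (SE, adjusted p = 3.6e-05), and ADE13, ADE57 and MTD1 were also among the 10 largest. HIS4 had 0.19 at pH 6.0, a difference of -1.64 ± 0.20 (SE, adjusted p = 2.1e-04). The zinc-regulated membrane gene IZH1, with -1.01 at pH 4.5 and 0.65 at pH 6.0, and ROX1, for a repressor of hypoxic genes, with -0.71 and 0.91, complete the list.

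Against BY4741 at the same pH, several of the same genes differed. SPI1 had 1.69 in BY4741, a difference of 2.74 ± 0.48 (SE, adjusted p = 0.0031), and HSP12 2.13, a difference of 2.04 ± 0.27 (SE, adjusted p = 5.3e-04). GPG1 rose in both and differed by 2.16 ± 0.31 (SE, adjusted p = 8.4e-04). GAD1, for glutamate decarboxylase, had 2.09 in W303 and -0.18 in BY4741, SSE2 had 2.04 and 0.07, and SUL2 had 2.83 and 0.81. FIT3 had 1.30 in W303 and -0.66 in BY4741, a difference of 1.96 ± 0.23 (SE, adjusted p = 2.3e-04). HSP26, at 4.56 in W303 and 0.53 in BY4741 (-0.75 to 1.46), was not tested, having 1 value at pH 6.0 where 3 were needed. Of the tested genes, PGM2, GAP1 and GDB1 were the other higher differences among the 10 largest. With every array scaled to 1 spread those of SPI1 (1.54, adjusted p = 0.11), HSP12 (0.72, adjusted p = 0.21) and GPG1 (0.60, adjusted p = 0.41) were not called.

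Among genes with lower ratios of mutant over wild type in W303 than in BY4741 were several of purine synthesis and transport. ADE17 had -0.77 in BY4741, a difference of -1.83 ± 0.17 (SE, adjusted p = 4.6e-05), and ADE1 -0.72, a difference of -1.73 ± 0.15 (SE, adjusted p = 2.6e-05). ADE13, ADE57 and HPT1 were in this set as well. PTR2 had -0.04 in BY4741, a difference of -1.88 ± 0.61 (SE, adjusted p = 0.045), and CTP1 -0.15, a difference of -1.08 ± 0.09 (SE, adjusted p = 1.4e-05). LYS4 had 0.10, the topoisomerase gene TOP3 -0.58 in W303 and 0.59 in BY4741, and ARE2, for sterol esterification, -1.15 and -0.00. The PTR2 call was lost without any 1 of the 8 arrays, at -2.03 to -1.70. PTR2 ran from -2.22 to -1.62 in W303 at pH 4.5 and from -0.48 to 0.51 in BY4741. The shared spread of the fit also took in W303 at pH 6.0, where the SD of PTR2 was 1.66. The ARE2 call was lost without replicate 3 of W303 at pH 4.5 (-1.13, adjusted p = 0.052), and both calls were lost with scaled arrays. Both strains carry other differences that the labels do not list, and none was tested.

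**Figure D5:**
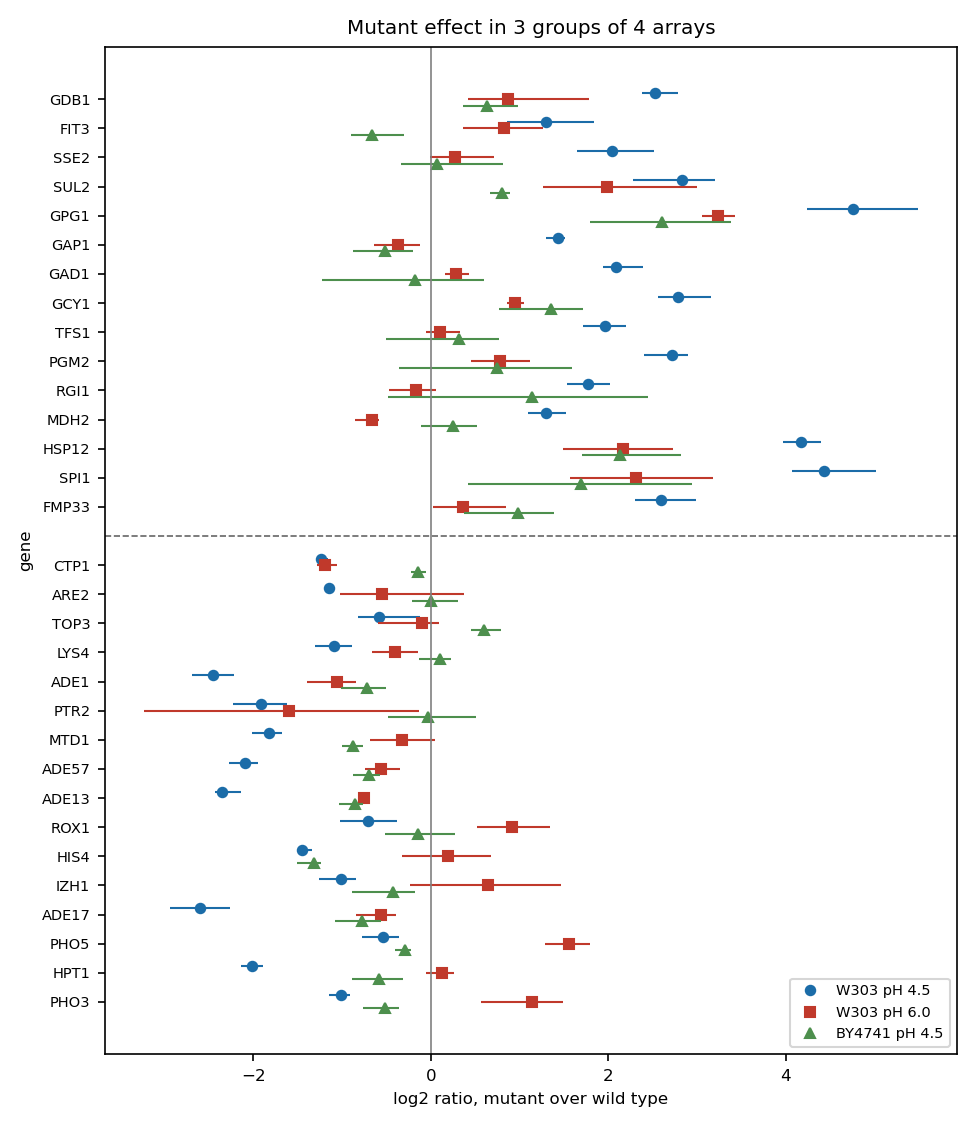
Mean log2 ratio of mutant over wild type in W303 at pH 4.5, W303 at pH 6.0 and BY4741 at pH 4.5 for genes with the largest called differences, with lines from the lowest to the highest array. Genes above the dashed line had higher ratios in W303 at pH 4.5 than in 1 or both of the other groups, and genes below it lower ratios. PHO3 and PHO5 lie below 0 in W303 at pH 4.5 and above 0 at pH 6.0.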

How the data were processed

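The deposited table lists 5994 reading frames, with values taken to be log2 of Cy5 over Cy3 on each array. The sources used here give neither the log base nor the authors' normalisation. Signs were turned on arrays with the mutant in Cy3. The submitters' design text names one-class SAM, in place of which limma 3.58.1 in R 4.3.3 fitted 1 mean per gene with empirical Bayes moderation, for genes with at least 3 values. Differences between groups were contrasts of means after fitting the 12 arrays together, where genes needed 3 values per group and the spread was shared by all groups. Calls required a two-sided p below 0.05 after Benjamini-Hochberg adjustment over every gene tested. SE is the moderated one. The fit was tested on simulated data.

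Names came from a RefSeq table (assembly R64), which matched 5481 reading frames, 4994 with a symbol, and left 513 unmatched. Chromosomes were read from systematic names, and neighbours from the order in that table. The members of the comparison, the 52 gene lists, 5 marker lists and 39 pairs were chosen with earlier results of these data known. The rule for naming took the deleted, marker and mating genes, the 15 largest called rises and falls with a symbol, 4 values and 1 sign outside the deleted and auxotrophic marker genes, up to 4 called members of each list in the direction of its median and 3 against it, the kinase family and potassium transport whether called or not, and the 10 largest called differences each way. Other genes, named for their role beside these, were chosen after their values were seen, and some genes that the rule takes are not reported here. Replicate numbers did not pair the arrays, with correlations of deviations from -0.171 to 0.209. Alternatives were a dye term, each array left out, other minimum numbers of values, centring, scaling, a pooled spread, robust moderation and a minimum change of 1.5-fold.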

Additional observations from a re-analysis of the deposited data

Results flagged for a closer look

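Of the 267 named genes with 4 values, 13 had 1 array far from the other 3, by a gap that passed Dixon's critical value for 4 samples. Chance alone sets about 1 in 20 groups apart in this way, and the count of 13 lies near that share. The dye-swapped replicate 2 was the distant array for CAR2 (0.81, with 1.43 to 1.45 on the others), POR1 (0.79, with 1.31 to 1.38), MEP1 (-1.24, with -0.27 to -0.23), KKQ8 (0.07, with 0.22 to 0.24) and STP1 (0.85, with 0.71 to 0.73). Replicate 1 stood apart for PIR5 (2.30, with 0.94 to 1.09), GPX1 (2.92, with 2.41 to 2.47) and HAL5 (0.42, with -0.32 to -0.21). Replicate 3 was distant for ADE13 (-2.14, with -2.43 to -2.41), POT1 (-0.09, with -0.50 to -0.46) and GPX2 (-0.35, with -0.41 on the others). For HSP104 (1.75, with 1.44 to 1.45) and GLC3 (2.41, with 2.11 to 2.16) it was replicate 4. HAL5 alone of the 13 had its distant array on the other side of 0.

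The mutant effect differed by limma's contrast from that at pH 6.0 in FMP33 by 2.22, SPI1 by 2.12, HSP12 by 2.01, MDH2 by 1.96, RGI1 and PGM2 by 1.94 each, TFS1 by 1.86, GCY1 by 1.84, GAD1 by 1.81 and GAP1 by 1.79. The differences below 0 were -2.15 for PHO3 and HPT1, -2.09 for PHO5, -2.04 for ADE17, -1.65 for IZH1, -1.64 for HIS4, -1.62 for ROX1, -1.60 for ADE13, -1.53 for ADE57 and -1.50 for MTD1. From BY4741 the effect differed in SPI1 by 2.74, GAD1 by 2.27, GPG1 by 2.16, HSP12 by 2.04, SUL2 by 2.02, PGM2 and SSE2 by 1.97 each, FIT3 by 1.96, GAP1 by 1.95 and GDB1 by 1.90. Lower there were PTR2 by -1.88, ADE17 by -1.83, ADE1 by -1.73, ADE13 by -1.49, HPT1 by -1.43, ADE57 by -1.39, LYS4 by -1.20, TOP3 by -1.18, ARE2 by -1.15 and CTP1 by -1.08. SPI1, HSP12, PGM2, GAD1 and GAP1 were higher, and ADE17, ADE13, ADE57 and HPT1 lower, in both comparisons, which share the 4 arrays of W303 at pH 4.5.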

How the results depend on the processing

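The count of 3807 called genes stayed between 2925 and 3890 under a dye term, other minimum numbers of values, centring, scaling, robust moderation and a spread pooled over 12 arrays, and between 3229 and 3711 with 1 array left out. Requiring a change of at least 1.5-fold by limma's treat test left 493, 354 higher and 139 lower. Against 1139 differences from W303 at pH 6.0, refits called 577 with centred and scaled arrays, 571 of them shared with the 1139, 830 with the 8 arrays of both groups alone, and 730 to 1511 with 1 array left out. Against 971 differences from BY4741, the refits called 446, 378 of them shared, 2012 and 441 to 755. With the replicate block the counts were 986 and 717. The numbers share no source in the labels, and their deviations correlated with their own number at -0.171 to 0.209, so the block was not used elsewhere. Median centring moved the split of the differences from 628 higher and 511 lower to 556 and 564 for pH, and from 517 and 454 to 454 and 509 for background. Single genes and list counts were not checked against the minimum change of 1.5-fold, which left 493 calls in all. Under the other alternatives no named gene and no named difference changed direction in a called value. Of 279 named genes 20 changed their side of the threshold under at least 1 of these other alternatives, and of 40 named differences 8 did. The causes were not tested. Only 4 arrays per group and unknown signal over background limit what small ratios can show.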

Other observations

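The remaining lists showed mixed or small changes. Hexose uptake and sensing had 10 genes higher and 1 lower of 17, and the galactose permease gene GAL2 rose by 0.82, although its sequence is close to those of other hexose transporters. In the Snf1 kinase list 7 of 13 measured genes rose and 0 fell, with SIP2, for a scaffold subunit of the kinase, at 0.73. Flocculin and filamentous growth genes were higher in 9 and lower in 1 of 14. Pyrimidine genes were higher in 3 and lower in 4 of 13, or lower in 7 with arrays centred on their median. Aromatic genes were higher and lower in 3 and 5 of 14, and histidine genes in 1 and 4 of 5. For serine, glycine and threonine the numbers were 3 and 9 of 16, and for the proteasome 7 and 6 of 33. The proteasome rises numbered 4, 2 and 3 without replicates 2, 3 and 4, and 4 with a dye term or with the spread pooled over all 12 arrays, and its falls numbered 3 with the pooled spread.

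Of the haploid-specific genes, 3 of 8 rose and 0 fell, with STE18, for the gamma subunit of the pheromone G protein, at 0.53 and RME1, for a repressor of meiosis, at 0.50.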
